A study of Mus musculus with 26 samples.

Results

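The 35 genes described here mark red cell precursors and the making of heme in the mouse. They comprise 4 adult globins, 5 heme enzymes, 2 iron import genes, 5 genes for the erythropoietin receptor and erythroid transcription factors, 11 genes of the red cell membrane and its skeleton, and 8 other erythroid genes. They were selected by gene name, from a list drawn up with earlier results of these data known. Of the 35, 34 were found by symbol among the 56392 genes of the deposited table, and Ahsp was not analysed here. The samples were whole spleens of female BALB/c mice, 8 weeks old and weighing 18 to 22 g, with no other genetic change given in the labels. Saline was injected into the peritoneum in the control group, and ovalbumin (OVA, an egg-white allergen) at 0.05 mg per day in the others, on days 1, 3 and 5. A further group received OVA and, on day 3, a synthetic copy (mimic) of a microRNA, miR-676-3p, at 7 mg per kg through the tail vein, so both of these groups share the allergen. The 26 libraries carry the codes CT (saline, 5 libraries), OS (OVA, 6), ON (OVA, 5), MM (OVA with mimic, 5) and MN (OVA with mimic, 5), and the labels do not define what separates OS from ON or MM from MN. The labels give 20 mice per group but do not tie a library to a mouse. P-values below therefore measure only the spread between these libraries, which may be technical.

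The mouse spleen, unlike the adult human spleen, makes red cells throughout life, and its red pulp also breaks down old ones. Erythropoietin and its receptor keep erythroid precursors alive, and the transcription factors Gata1, Klf1, Tal1 and Nfe2 switch on globins, heme enzymes and membrane proteins as the precursors mature. Heme is built in a chain of steps that starts with Alas2 in the mitochondrion and ends there with Fech, which inserts iron, while globin chains are made in the cytosol and take up heme to form hemoglobin. Late precursors lose their nucleus and keep a shrinking pool of globin and other messenger RNA as reticulocytes, which circulate, so the blood held in a spleen carries part of this RNA.

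Values are FPKM (fragments scaled to gene length and to library size), so levels of different genes can be set side by side. Reads per library, recovered from the table, ranged from 14224832 in MM 2 to 18113989 in ON 4, and the member with the fewest reads in any library, Epor, still had 698 there. All 5 B cell, 6 T cell and 9 red pulp macrophage markers exceeded 1 FPKM in every library, as in spleen. A few libraries stand apart. Saline library CT 4 had 6.62% of its reads on mitochondrially encoded genes, and the other 4 saline libraries 1.44% to 1.81%. The library size behind its deposited values was 0.802 of its reads, and 1.00 to 1.06 in those 4. Pancreas genes made up 26.6% of the reads of ON 2, 13.3% of those of MM 2 and 4.0% of those of ON 3, but no more than 0.00320% of any other library.

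RefSeq promoter sequences (GRCm38.p6, the reference strain and not BALB/c) were on hand for 26 of the 35 genes. They are shown because the genes are textbook targets of Gata1 and Klf1 and because the globin copies are nearly alike. The GATA element, spelled AGATAA or TGATAA on either strand, occurred within the 250 bases before the start of 15 of these 26 genes (57.7%), against 18.8% of 27025 genes in the same table (16.6% of its 32851 promoters). By role it was found in 3 of 4 globins (Hba-a1, Hba-a2 and Hbb-bs), 2 of 4 heme enzymes (Alas2 and Cpox), 3 of 4 genes of the receptor and factor group (Epor, Klf1 and Tal1), 5 of 9 membrane genes (Epb42, Ermap, Kel, Rhag and Rhd), 2 of 4 other erythroid genes (Hemgn and Trim10), and not in the single iron import promoter. The looser CACCC-type element, spelled CCNCNCCC on either strand, occurred in 15 of the 26 (57.7%), against 48.5% of all genes, and the strict CACCC box CCACACCC in 1 (3.85%, against 3.68%). The core of the NF-E2 site, TGAGTCA, occurred in 2 (7.69%, against 5.16%). A match is a run of letters and not a shown binding site. The stretches below are printed 5′ to 3′ on the gene's strand, with GATA elements and CACCC-type elements in capitals.

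Hba-a1 (chr11:32283432-32283510, + strand): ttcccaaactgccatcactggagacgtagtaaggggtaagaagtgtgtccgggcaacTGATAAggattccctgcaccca
Hba-a2 (chr11:32296249-32296327, + strand): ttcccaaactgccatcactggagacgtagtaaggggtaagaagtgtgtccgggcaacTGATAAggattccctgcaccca
Hbb-bs (chr7:103828097-103828178, - strand): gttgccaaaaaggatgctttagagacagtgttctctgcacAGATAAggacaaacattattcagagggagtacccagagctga
Hbb-bt (chr7:103813997-103814086, - strand): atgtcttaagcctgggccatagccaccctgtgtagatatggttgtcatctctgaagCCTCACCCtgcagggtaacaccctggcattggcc
Alas2 (chrX:150547274-150547374, + strand): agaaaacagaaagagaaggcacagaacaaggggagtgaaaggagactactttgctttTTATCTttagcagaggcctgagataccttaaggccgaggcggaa
Klf1 (chr8:84901845-84901927, + strand): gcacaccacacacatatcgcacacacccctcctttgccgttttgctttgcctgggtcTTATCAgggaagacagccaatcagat
Epor (chr9:21963577-21963696, - strand): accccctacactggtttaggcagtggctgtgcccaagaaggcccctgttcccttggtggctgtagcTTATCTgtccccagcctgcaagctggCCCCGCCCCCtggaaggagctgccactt
Rhd (chr4:134864416-134864535, + strand): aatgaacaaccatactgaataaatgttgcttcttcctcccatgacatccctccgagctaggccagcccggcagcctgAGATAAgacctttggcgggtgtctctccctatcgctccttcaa

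The Hba-a1 and Hba-a2 stretches, each of 79 bases, are identical. Their GATA element lies at position -183 from the RefSeq start of Hba-a1 and at -186 from that of Hba-a2. In the Hbb-bs stretch the element lies at -210, and the Hbb-bt stretch holds a CACCC-type element at -107 and no GATA element. On the opposite strand the element lies at -86 in Alas2, -80 in Klf1 and -54 in Epor, and Rhd has one at -43 on its own strand. The coding sequences of the copies are as close. In GENCODE M21, also on GRCm38, Hba-a1 and Hba-a2 differ at 1 of 426 coding bases, with an identical run of 380 bases, and Hbb-bs and Hbb-bt at 1 of 441, with an identical run of 416. How the authors' counting shared reads between such copies is not stated in any source at hand, and BALB/c mice carry another beta-globin haplotype than the reference strain. The split of reads within each pair is therefore uncertain. Whether the sum of a pair is complete is not known either, since reads that match both copies may have been left out.

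Globins were by far the most abundant transcripts of the set. The adult globins together took 1.16% (ON 2) to 6.09% (MN 5) of a library's reads, and all 34 genes 2.09% to 7.88%. By code the globin share was 4.13% ± 0.756 in CT (SD, n = 5), 2.93% ± 1.18 in OS (n = 6), 2.41% ± 1.14 in ON (n = 5), 2.17% ± 0.213 in MM (n = 5) and 3.80% ± 1.48 in MN (n = 5). The MM libraries lay close together, from 1.86% to 2.41%, and all 5 were below the lowest saline library, which had 3.28%. OS and MN were broad and reached into the saline range, and ON 4 and ON 5 lay inside it too. Pancreas reads enlarge the total of ON 2 and MM 2 and so lower their globin shares. With pancreas and mitochondrial reads left out of the total, the share was 1.61% in ON 2 and 2.67% in MM 2. ON 1 was then the lowest library, at 1.29%, and all 5 MM libraries were still below the lowest saline library, at 3.33%. In bulk spleen, fewer erythroid cells or less retained blood and less RNA per cell cannot be told apart.

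Hbb-bs, a beta-globin gene of the adult cluster (ENSMUSG00000052305, chromosome 7, 103475741 to 103477303 on the table's unnamed build), had 32468, 21892, 24887, 31361 and 20224 FPKM in CT 1 to CT 5. The 6 OS libraries ran from 10954 through a median of 14767 to 28219 FPKM. In ON 1 to ON 5 it had 6915, 10198, 15849.9, 18486 and 19286 FPKM, in MM 1 to MM 5 13547, 15267, 14288, 9883 and 12521 FPKM, and in MN 1 to MN 5 17900.3, 27119.9, 13629, 14889 and 34218 FPKM. Among the OVA libraries, 9 of 11 had less than any saline library, and OS 3 and OS 6 lay within the saline range. Its OVA mean was 16139 ± 6579 FPKM (n = 11) against 26166 ± 5521 under saline (n = 5), a log2 difference of -0.80 ± 0.28 (SE) on the log2(FPKM + 1) scale, which did not pass (limma adjusted p = 0.137, unadjusted p = 0.00907). Without CT 4 the difference was -0.73.

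Hba-a1, an alpha-globin gene (ENSMUSG00000069919, chromosome 11, 32233511 to 32234465), was likewise low in MM. Its FPKM were 23661, 16729.9, 19936, 32823 and 15297 in CT 1 to CT 5, and from 8518 through a median of 12294 to 23889.6 in OS. ON 1 to ON 5 had 6002, 8934, 13829, 18033 and 17687 FPKM, MM 1 to MM 5 11224, 13686, 12194, 8794 and 9536 FPKM, and MN 1 to MN 5 16219, 21330.2, 13089.6, 12506 and 30860.0 FPKM. All 5 MM libraries lay below the lowest saline library, whereas ON 4, ON 5, 3 MN libraries and 2 OS libraries did not. The OVA-against-saline difference was -0.71 ± 0.29 (adjusted p = 0.211).

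Hba-a2, the second alpha-globin copy, had the widest range of the 34 genes, 14.6 times between 348 FPKM in ON 2 and 5069 in OS 3. Saline libraries CT 1 to CT 5 had 4233, 880.2, 1280.4, 1802 and 715 FPKM, and OS ran from 545 through a median of 1662 to 5069. ON 1 to ON 5 had 589, 348, 2141, 1366 and 1601 FPKM. MM 1 to MM 5 had 759.9, 1415, 1580.3, 1057 and 962 FPKM, all below every MN library, since MN 1 to MN 5 had 1972, 3405, 1747, 2006 and 4579. The MM-against-MN difference was -1.19 ± 0.55 and did not pass (unadjusted p = 0.0410, limma adjusted p = 0.645). In Hba-a1, where the codes overlapped, MM 2 (13686 FPKM) lay above MN 3 (13089.6) and MN 4 (12506). The split of reads between these copies is uncertain. As a share of the alpha-globin FPKM, Hba-a2 made up 15.2% in CT 1 and 4.47% to 6.04% in the other saline libraries. In MN the share was 10.8% to 13.8%, and over all libraries 3.75% (ON 2) to 17.5% (OS 3). Hbb-bt, the second beta-globin copy, held a steadier share of the beta-globin FPKM, 11.4% to 19.4%, and its OVA-against-saline difference was -0.94 ± 0.34 (adjusted p = 0.149). Alpha over beta FPKM stayed between 0.660 and 0.928 in all 26 libraries.

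**Figure D1:**
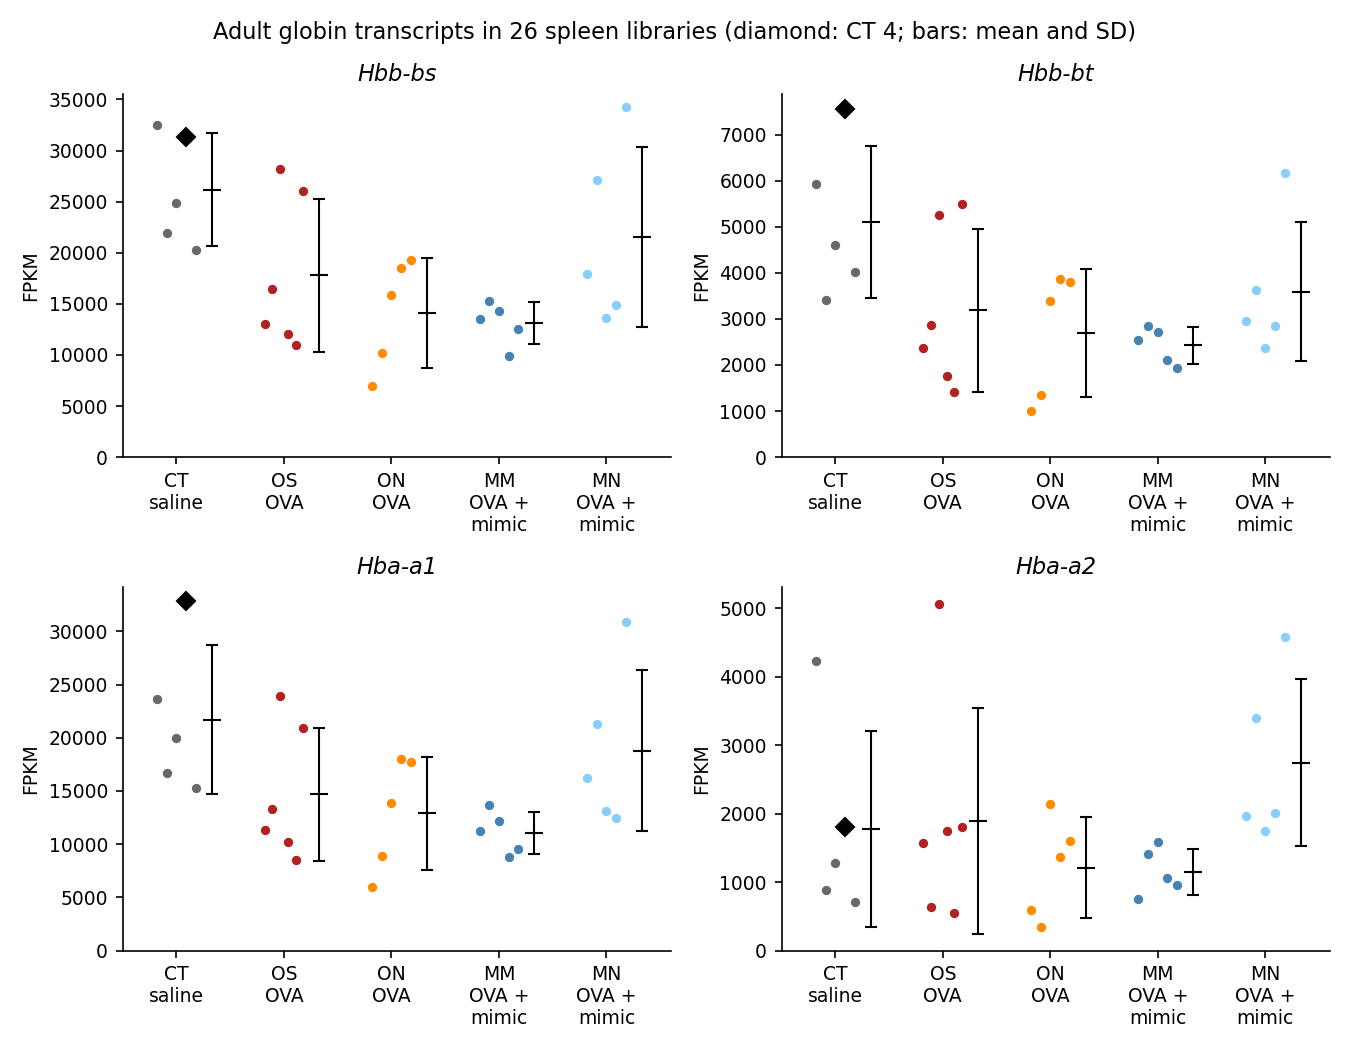
FPKM of the adult globin genes (vertical axes, from 0) in each library by code, with the mean and SD of each code as a bar and saline library CT 4 as a diamond. In Hbb-bs, Hbb-bt and Hba-a1 the 5 MM libraries sit together below every saline library, while OS and MN spread widely. In Hba-a2 the 5 MM libraries lie below every MN library, but the split of reads between it and Hba-a1 is uncertain.

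Heme enzymes, all 5 of them, had differences below 0 in OVA against saline. None passed, and each was closer to or above 0 without CT 4. Alas2, which starts heme synthesis in erythroid cells, had 274, 428, 558, 1730.0 and 378 FPKM in CT 1 to CT 5. OS ran from 133 through a median of 379.8 to 651, ON 1 to ON 5 had 204, 307, 499, 431 and 488, MM 1 to MM 5 had 189, 398, 212, 314 and 287, and MN 1 to MN 5 had 339, 432, 261, 279 and 623 FPKM. Apart from CT 4 every library of every code fell between 133 and 651 FPKM. The OVA-against-saline difference was -0.60 ± 0.36 (adjusted p = 0.427), and -0.18 without CT 4.

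Alad, the second enzyme of the chain, had 406, 259, 288, 784 and 217 FPKM in CT 1 to CT 5 and 152 through a median of 285 to 539.9 in OS. Its FPKM in ON 1 to ON 5 were 186, 206, 186, 399 and 351, in MM 1 to MM 5 258, 388, 390.2, 219 and 74.6, and in MN 1 to MN 5 299, 312, 211, 123 and 296. The groups overlapped, with MM 5 the lowest of the 26 and CT 4 the highest. Its difference was -0.40 ± 0.36 (adjusted p = 0.653), and -0.10 without CT 4. Urod and Cpox, which act in the middle of the chain, and Fech, the last enzyme, ranged over 42.6 to 212, 10.03 to 41.4 and 17.1 to 153 FPKM, each highest in CT 4. Their differences were -0.29 ± 0.25, -0.28 ± 0.24 and -0.27 ± 0.31, and without CT 4 0.01, -0.18 and 0.13.

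The 2 iron import genes had differences above 0 in OVA against saline, and neither passed. Slc25a37, the mitoferrin that carries iron into the mitochondrion, had 208, 156, 179.7, 374 and 150.4 FPKM in CT 1 to CT 5, and 148 through a median of 264 to 386 in OS. ON 1 to 5 had 144, 214, 291, 270.1 and 254, MM 1 to MM 5 131, 283, 191, 228 and 192, and MN 1 to MN 5 209, 188, 126, 127 and 225 FPKM. OVA libraries were spread over the whole saline range, with ON 1 and OS 4 just below it and OS 6 above CT 4. The OVA-against-saline difference was 0.26 ± 0.23 (adjusted p = 0.652), and 0.48 without CT 4, and that of OVA with mimic against OVA -0.39 ± 0.19 (adjusted p = 0.497), with 9 of 10 mimic libraries below the OVA mean. Tfrc, the transferrin receptor, had 131, 85.2, 93.0, 170.1 and 85.7 FPKM in CT 1 to CT 5, 69.9 through 125 to 177 in OS and 64.6, 91.0, 133, 133 and 114 in ON 1 to ON 5. MM 1 to MM 5 had 71.2, 121, 108, 93.4 and 97.6 FPKM, and MN 1 to MN 5 112, 95.2, 60.8, 75.9 and 114. Tfrc had an OVA-against-saline difference of 0.03 ± 0.22 (adjusted p = 0.965), and 0.19 without CT 4, with every code overlapping every other. Tfrc is not particular to red cells, since dividing cells of other kinds also carry it.

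The receptor and the transcription factors did not separate the codes. Klf1, which activates adult beta-globin, had 135, 122, 147, 164 and 111 FPKM in CT 1 to CT 5 and 55.6 through a median of 103 to 179 in OS. ON 1 to ON 5 had 73.3, 73.5, 126, 183 and 158, MM 1 to MM 5 78.8, 171, 125, 81.3 and 91.7, and MN 1 to MN 5 148, 142, 96.4, 77.3 and 142 FPKM. Of the 11 OVA libraries, 5 lay below and 2 above the whole saline range, and the difference was -0.32 ± 0.26 (adjusted p = 0.609). Tal1, a factor of early and late erythroid precursors, had 62.9, 52.5, 61.6, 92.5 and 47.6 FPKM in CT 1 to CT 5 and 24.1 through 57.5 to 86.8 in OS. In ON 1 to ON 5 it had 36.7, 45.3, 61.4, 75.4 and 74.0, in MM 1 to MM 5 32.1, 74.9, 47.9, 47.0 and 42.2, and in MN 1 to MN 5 68.7, 64.5, 38.6, 33.2 and 58.2 FPKM. Its OVA-against-saline difference was -0.17 ± 0.25 (adjusted p = 0.810), and -0.02 without CT 4. Gata1, the master erythroid factor, and Nfe2, a factor of globin control shared with megakaryocytes, ranged over 22.0 to 63.8 and 24.1 to 91.2 FPKM, with differences of -0.17 ± 0.20 and -0.19 ± 0.23, and -0.05 and 0.04 without CT 4. Epor, the erythropoietin receptor, ranged over 24.6 to 75.2 FPKM and differed by 0.07 ± 0.24 (adjusted p = 0.931), or by -0.10 without CT 4. It was the only one of the 34 genes that was lower in CT 4, 26.2 FPKM, than in every other saline library.

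Membrane and skeleton genes showed no common direction under OVA, with 3 of 11 above 0 and 8 below (6 below with plain FPKM). Slc4a1, the band 3 anion exchanger, had 398, 476, 595, 750.1 and 419 FPKM in CT 1 to CT 5, and 177 through a median of 539 to 932 in OS. ON 1 to ON 5 had 340.2, 437, 717, 663 and 690.0, MM 1 to MM 5 232, 756, 358, 501 and 388, and MN 1 to MN 5 542, 496, 347, 345 and 693 FPKM. The OVA mean lay at the saline mean, with a difference of -0.00 ± 0.31 (adjusted p = 0.997), and 0.13 without CT 4. Rhd, a Rhesus antigen protein, had 178, 139, 167, 239 and 125 FPKM in CT 1 to CT 5 and 58.1 through 127 to 213 in OS. It had 79.0, 96.1, 151, 184 and 165 in ON 1 to ON 5, 86.9, 174, 136, 97.5 and 95.3 in MM 1 to MM 5, and 159.9, 151, 103, 102 and 185 FPKM in MN 1 to MN 5. Rhd differed by -0.38 ± 0.26 (adjusted p = 0.520), the lowest of the membrane genes, and Kel, a blood group protein, by 0.24 ± 0.24, the highest. Without CT 4 these were -0.24 and 0.39. Skeleton genes Sptb (beta-spectrin), Ank1 (ankyrin), Epb41 (protein 4.1), Epb42 (protein 4.2) and Add2 (beta-adducin) lay between -0.31 and 0.12, and each was highest in CT 4, without which they lay between -0.10 and 0.40. The remaining surface genes Ermap, Rhag (the Rhesus-associated glycoprotein) and Tspan33 lay between -0.04 and 0.05, and between 0.10 and 0.34 without CT 4.

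Among the other erythroid genes, Bpgm, which makes the 2,3-bisphosphoglycerate that loosens oxygen from hemoglobin, had the largest difference of all 34. Its FPKM were 99.8, 93.3, 123, 494 and 79.5 in CT 1 to CT 5 and 37.4 through a median of 58.2 to 98.9 in OS. The ON libraries had 35.02, 45.1, 86.8, 84.5 and 93.5, MM 1 to MM 5 45.9, 62.0, 42.1, 55.0 and 44.3, and MN 1 to MN 5 63.8, 101, 52.7, 57.7 and 125 FPKM. CT 4 was 5.00 times the mean of the other saline libraries, and 6 of 11 OVA libraries had less than any saline library. The OVA-against-saline difference was -1.08 ± 0.33 (unadjusted p = 0.00329, limma adjusted p = 0.0844, 0.0668 to 0.324 over the alternatives), and -0.61 without CT 4 (adjusted p = 0.200). Against saline, OVA with mimic gave -1.13 ± 0.33 (adjusted p = 0.691), and -0.67 without CT 4.

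Xpo7, a nuclear export factor of maturing erythroblasts, had both the highest OVA-against-saline difference and the lowest of OVA with mimic against OVA. It had 18.1, 20.8, 24.5, 56.2 and 17.8 FPKM in CT 1 to CT 5, 14.2 through 29.7 to 54.3 in OS, and 20.8, 29.9, 47.2, 31.5 and 32.1 in ON 1 to ON 5. MM 1 to MM 5 had 13.2, 34.0, 17.1, 31.7 and 21.1 FPKM, and MN 1 to MN 5 23.3, 22.6, 14.6, 16.9 and 34.4. Groups overlapped throughout, and the differences were 0.28 ± 0.29 (adjusted p = 0.697) and -0.47 ± 0.24 (adjusted p = 0.502). Without CT 4 the first was 0.57. These comparisons share the OVA libraries.

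Car2, a carbonic anhydrase that speeds carbon dioxide transport, had 642, 485, 561, 1672 and 467 FPKM in CT 1 to CT 5, and 379 through a median of 625 to 1076 in OS. ON 1 to ON 5 had 341, 582, 621, 688 and 594, MM 1 to MM 5 364, 633, 593, 461 and 500.4, and MN 1 to MN 5 583, 552, 339, 331 and 565 FPKM. Hemgn, a nuclear protein of blood precursors, had 143, 137, 163, 432 and 128 FPKM in CT 1 to CT 5, and 66.0 through 194 to 322 in OS. ON 1 to ON 5 had 106, 192, 233, 216 and 185, MM 1 to MM 5 80.8, 225, 132, 160.4 and 152, and MN 1 to MN 5 169.9, 146, 105, 106 and 197 FPKM. Neither separated the codes. Their OVA-against-saline differences of -0.15 ± 0.27 and -0.01 ± 0.32 turned to 0.18 and 0.31 without CT 4. Car1, another carbonic anhydrase, Trim10 and Mkrn1, a pair of genes for RING-finger proteins, had -0.36 ± 0.20, -0.33 ± 0.28 and -0.52 ± 0.25, and without CT 4 -0.10, -0.16 and -0.16.

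The comparison of OVA with saline bears on the effect of the allergen. In it 0 of the 34 genes passed an adjusted p of 0.05 (limma, 26 libraries in the fit), against 2.17% of the 15672 tested in all. With no adjustment, 5 of 34 had a p under 0.05 (14.7%). They were Hbb-bs, Hba-a1, Hbb-bt, Bpgm and Mkrn1, all below 0, against 16.3% of all genes. The share is near the background. Without CT 4 it was 4 of 34, against 3058 of 15579 genes. These 4 were Hbb-bs, Hbb-bt and Bpgm, below 0, and Slc25a37, above 0. Many of the 34 genes vary together, with CT 4 the highest library for 24 and OS 4 the lowest for 18. Direction counts here and below are therefore not independent gene by gene. With CT 4 kept, 27 of 34 lay below 0, against 48.3% of all genes, with a median of -0.25 against 0.01. Without CT 4 it was 17 of 34 with a median of -0.00, and the globins, 4 of 4 below 0, had a median of -0.75 with CT 4 and -0.64 without it. Heme enzymes had a median of -0.29 with it and -0.10 without, and membrane genes -0.04 with it and 0.18 without. Without CT 4 and the 3 libraries with pancreas reads, an alternative chosen after seeing the data, 16 of 34 lay below 0 (49.8% of all genes). The globin median was -0.61.

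**Figure D2:**
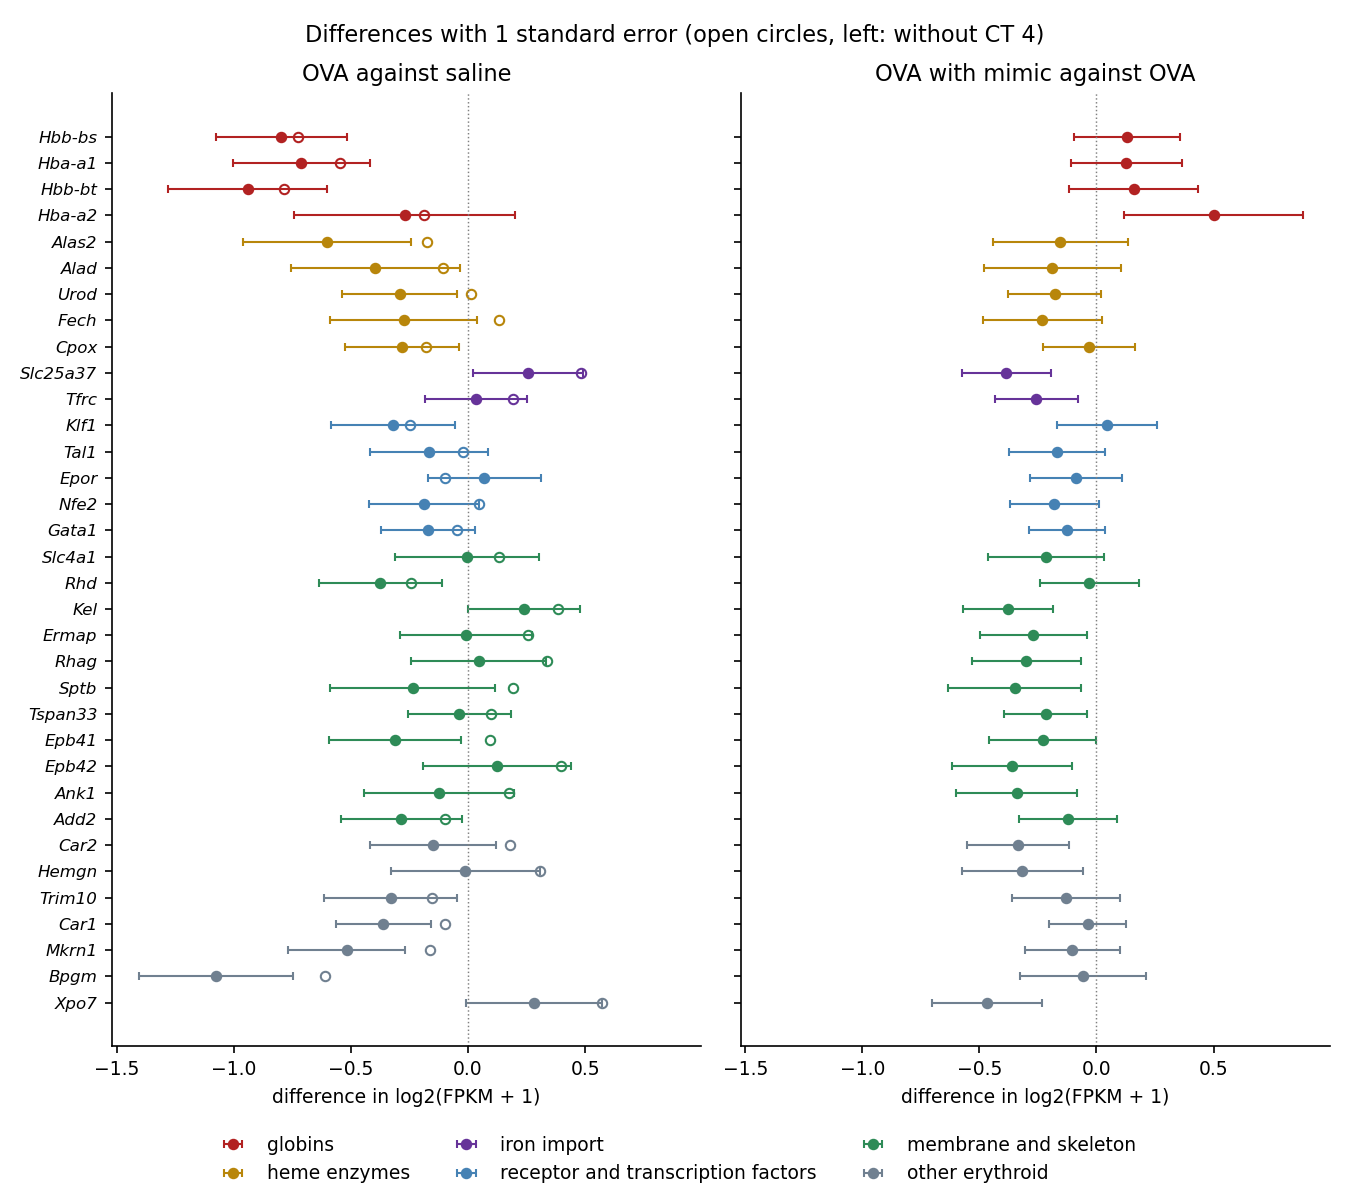
Difference in log2(FPKM + 1) with 1 standard error (horizontal axes) for each of the 34 genes, by role, in OVA against saline (left) and OVA with mimic against OVA (right), with open circles on the left for the fit without CT 4. Without CT 4, 9 of 11 membrane genes lie above 0 on the left and Hbb-bs stays at -0.73, while 29 of 34 genes lie below 0 on the right.

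The comparison of OVA with mimic and OVA alone bears on the mimic together with its injection. The labels give no tail-vein injection for OS or ON, so the mimic and the injection cannot be told apart. Here 0 of 34 genes passed (limma), against 0% of all tested, and 0 of 34 had an unadjusted p under 0.05, against 10.1%. Below 0 lay 29 of 34 (49.3% of all genes), with a median of -0.18. The 5 above 0 were Klf1 and the globins, of which Hba-a2 was the highest at 0.50 ± 0.38 (adjusted p = 0.662). The mean globin level relative to saline was -0.07 in MN and -0.83 in MM, against -0.51 in OS and -0.85 in ON. Only MN thus lay above both OVA codes. With plain FPKM on all reads, where the median of all genes shifted to 0.05, 26 of 34 lay below 0 (37.5% of all genes). All 11 membrane genes lay below 0 (10 with plain FPKM), from -0.38 ± 0.19 in Kel to -0.03 ± 0.21 in Rhd. OVA with mimic against saline, which shares its libraries with both other comparisons, gave 0 of 34 at the adjusted threshold, against 0%, and 5 of 34 at an unadjusted p under 0.05, against 6.72%. These 5 were Hbb-bs, Hbb-bt, Alas2, Mkrn1 and Bpgm, all below 0. Without CT 4 there was 1 of 34, against 459 of 15579 genes. The 5 genes then had -0.60 ± 0.31, -0.63 ± 0.37, -0.33 ± 0.32, -0.26 ± 0.20 and -0.67 ± 0.26. With CT 4 kept, 33 of 34 lay below 0 (48.4% of all genes), with a median of -0.38. Without CT 4 it was 28 of 34 (50.6% of all genes), with a median of -0.16.

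Within a treatment the codes were also compared. OS against ON gave 0 of 34, against 0.185% of all genes, and 0 of 34 at an unadjusted p under 0.05, against 10.6%. Below 0 lay 19 of 34 (47.8% of all genes), or 12 (38.4% of all genes) with plain FPKM. The globin median was 0.30. MM against MN gave 0 of 34, against 0.172%, and 1 of 34 at an unadjusted p under 0.05, Hba-a2, against 7.25%. All 4 globins were lower in MM, with a median of -0.67, and the 11 membrane genes had a median of -0.08, or -0.26 without the 3 libraries with pancreas reads. Limma voom on the recovered reads also called 0 of 34 in each of the 5 comparisons.

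Set against the mean of the saline libraries, the globins as a role stood at -0.51 ± 0.73 in OS, -0.85 ± 0.80 in ON, -0.83 ± 0.25 in MM and -0.07 ± 0.55 in MN (mean log2 level, SD between libraries). The membrane genes stood at -0.12 ± 0.68, -0.06 ± 0.41, -0.38 ± 0.49 and -0.31 ± 0.40 in the same order. That saline mean includes CT 4, where the membrane genes lay at 0.98, against -0.41 to -0.04 in the other saline libraries. Set against those libraries alone, the OS and ON means lie above saline and not below it, and the MM and MN means stay below. The globin level minus the membrane level in a library was -1.40 in ON 2, -1.37 in OS 5 and -1.11 in ON 1, and 0.86 in CT 1 and 0.67 in MN 5, so libraries rich in globin RNA were not always those rich in membrane RNA. In OS 4 it was 0.45, with membrane genes at -1.28, the lowest of the 26, and globins at -0.83.

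**Figure D3:**
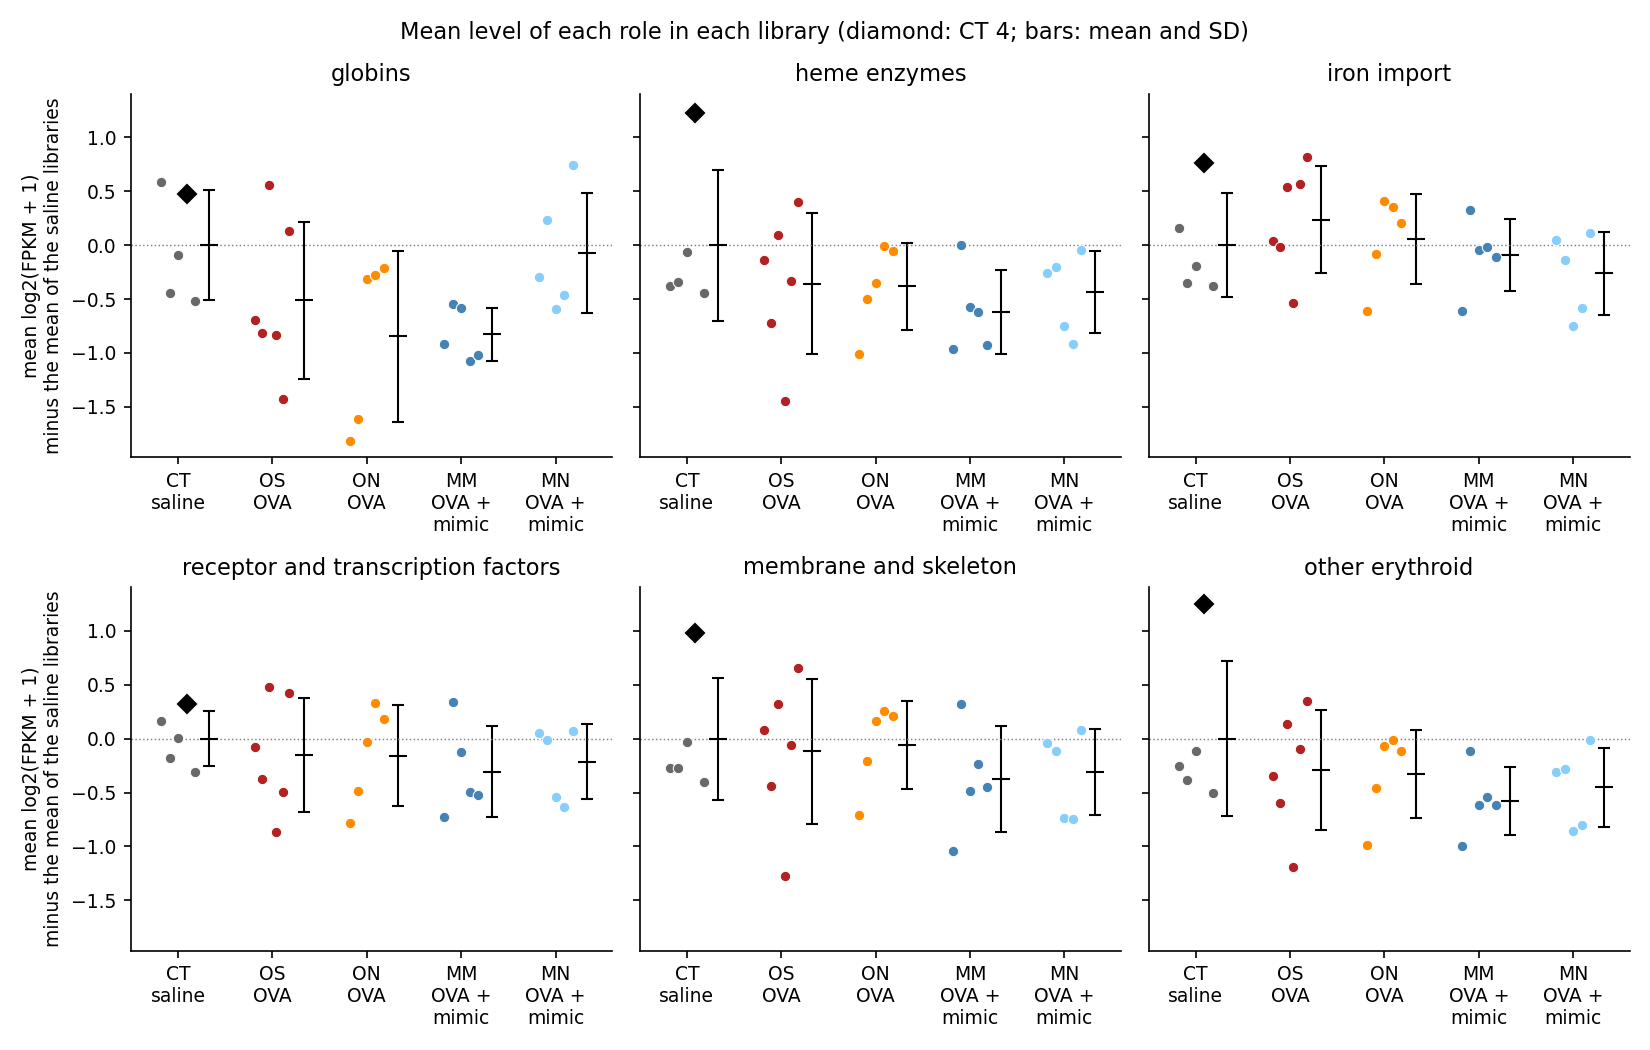
Mean log2(FPKM + 1) of each role minus the mean of the saline libraries (vertical axis) in each library by code, with the mean and SD of each code and CT 4 as a diamond. CT 4 tops the heme, membrane and other erythroid panels and so raises the saline mean set at 0 there. It does not top the globin panel, where all 5 ON and all 5 MM libraries lie below 0.

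Libraries of 1 code varied widely. CT 4 was the highest of the 26 libraries for 24 of the 34 genes, OS 6 for 5, OS 3 for 3, and ON 4 and MN 5 for 1 each. OS 4 was the lowest for 18 and ON 1 for 7. Relative to the mean of the other saline libraries, CT 4 was 5.00 times as high in Bpgm, 4.46 in Sptb, 4.23 in Alas2, 4.17 in Epb41 and 4.15 in Fech, but 1.26 in Hbb-bs, 1.01 in Hba-a2 and 0.54 in Epor. With CT 4 left out, OS 6 was the highest for 19 genes and OS 3 for 9. The proliferation list was also highest in CT 4, at 0.68 above the saline mean.

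CT 4 also differed from the other saline libraries by base composition. Over 14929 tested genes with a GENCODE M21 transcript, split into 5 equal bins by GC content, the median difference of CT 4 from the other saline libraries was 0.29 on the log2 scale in the bin lowest in GC (up to 44.0%) and -0.67 in the highest (from 55.5%). OS 5 had the same slope, from 0.31 to -0.52 against the other OS libraries. The 34 genes also fell with GC but from a higher level. Their median in CT 4 was 1.14, with 1.46 in the 3 genes of the lowest bin and 0.74 in the 8 of the highest, and in each of the 5 bins it lay above the median of all genes. Epor (59.6% GC) lay at -0.84 and Klf1 (61.0%) at 0.36, while Sptb (57.0%) lay at 2.15. OS 5, with the same slope, had a median of -0.01 for the 34 genes, and it was the library with the lowest Epor, 24.6 FPKM. The part of base composition and mitochondrial reads in the CT 4 values was not tested.

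**Figure D4:**
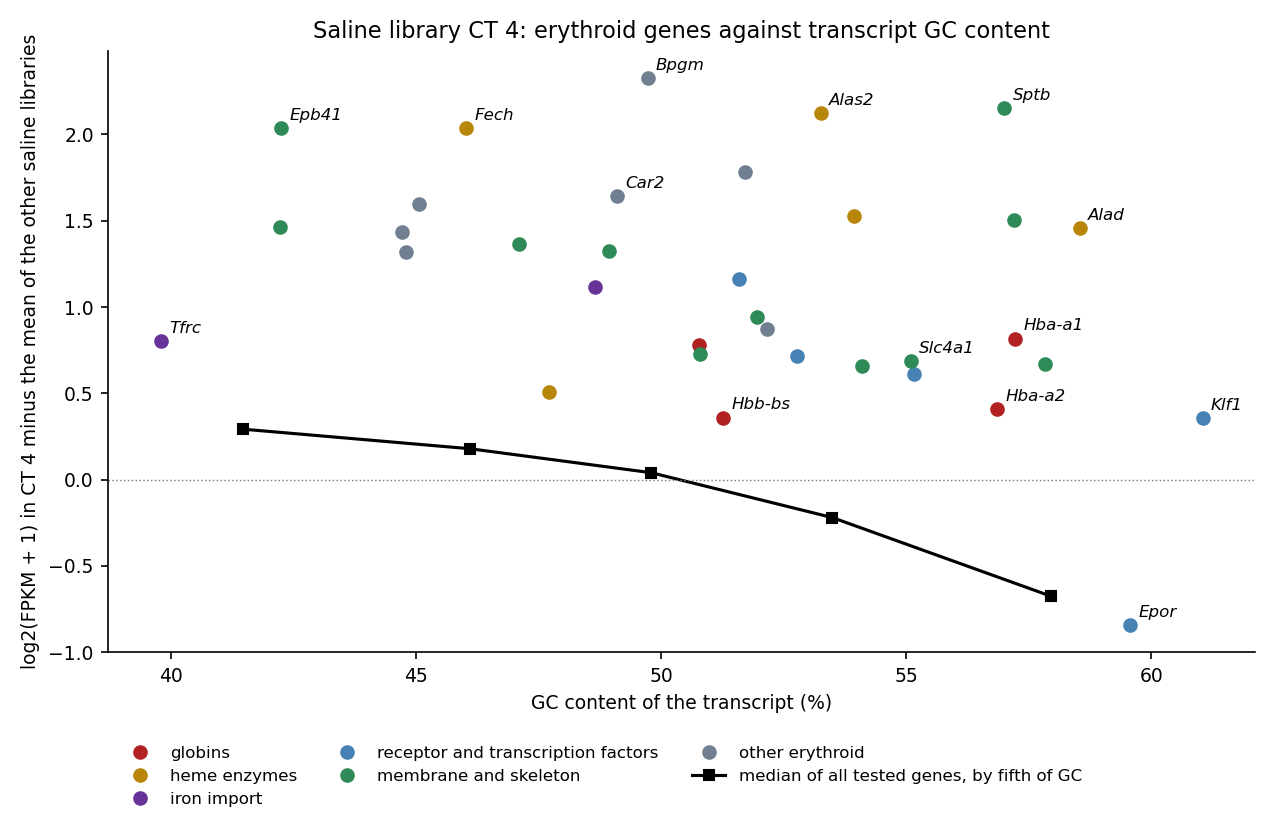
Difference in log2(FPKM + 1) between CT 4 and the mean of the other saline libraries (vertical axis) against GC content of the longest annotated transcript (horizontal axis) for the 34 genes by role, with the median of all tested genes in 5 bins of GC content as the black line. The genes lie above that line, which falls from 0.29 to -0.67, apart from Epor at -0.84, and Sptb and Alas2 stand at 2.15 and 2.12 with GC contents of 57.0% and 53.3%.

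Other genes of the same pathways, on lists drawn up by function, showed no called change in any of the 5 comparisons. In OVA against saline 0 passed of the 4 remaining heme enzymes, 2 tested globins of the embryonic and theta list, 12 other membrane genes, 9 other erythroid transcription factors, 11 genes of iron and heme traffic and antioxidant defence, and 8 genes of erythropoietin signalling. At an unadjusted p under 0.05 these lists had 1, 0, 0, 1, 2 and 0, against 16.3% of all genes. Alas1, the form of the first enzyme that most tissues use, was higher under OVA, 9.06 ± 1.45 against 6.60 ± 1.84 FPKM, with a difference of 0.42 ± 0.13 that did not pass (adjusted p = 0.0914), and of 0.26 without CT 4. The membrane channel Aqp1 differed by 0.04 ± 0.25, or 0.16 without CT 4. Lmo2, a partner of Tal1, differed by -0.30 ± 0.15 and Zfpm1, a partner of Gata1, by 0.10 ± 0.26, and without CT 4 by -0.15 and 0.25. Prdx2, the main peroxiredoxin of red cells, differed by -0.43 ± 0.25, and Blvrb, a flavin and biliverdin reductase, by -0.53 ± 0.21, and without CT 4 by -0.15 and -0.34. Jak2, the kinase bound to the erythropoietin receptor, differed by 0.19 ± 0.12 and Pim1, a kinase it induces, by 0.30 ± 0.20, and without CT 4 by 0.34 and 0.07. Embryonic globins Hba-x, Hbb-y and Hbb-bh1 averaged 0.168, 0.102 and 0.0631 FPKM, and theta-globin copy Hbq1b 30.5 FPKM.

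Marker lists of other cells were read in the same fits, where 48.3% of all genes lay below 0 in OVA against saline and 49.3% in OVA with mimic against OVA. Of 12 tested megakaryocyte genes, which share Gata1 and Nfe2 with red cell precursors, 11 lay above 0 in OVA against saline with a median of 0.28, and all 12 lay below 0 in OVA with mimic against OVA with a median of -0.43. Both comparisons use the same OVA libraries with opposite sign, so their directions are not independent, here or in the neutrophil genes. The summed FPKM of the 13 listed megakaryocyte genes ran from 506 to 922 in CT, 562 to 1075 in OS, 635 to 1171 in ON, 479.9 to 909.9 in MM and 472 to 756 in MN. Neutrophil genes, 10 of them, had medians of 0.54 in OVA against saline (10 of 10 above 0, 0 called), -0.85 in OVA with mimic against OVA and -0.95 in MM against MN (10 of 10 below 0 in both, 0 called). Their summed FPKM ran from 1502 to 8197 in CT, 2187 to 7333 in OS, 2504 to 5992 in ON, 928 to 4880 in MM and 1155 to 8052 in MN. Of 76 ribosomal protein genes, whose RNA immature red cells also hold, 72 lay below 0 in OVA against saline with a median of -0.52, and 18 (11 without CT 4) were called lower and 0 higher, against 2.17% of all genes called. Their reads took 5.20% to 6.85% of the saline libraries and 2.40% (ON 2) to 5.79% (OS 4) of the OVA libraries. Mitochondrially encoded genes had 3 of 29 called lower, against the same 2.17%, with a median of -0.22. Without CT 4 their median turned to 0.12, with 2 called lower and 1 higher. The 9 red pulp macrophage genes had medians of -0.08 in OVA against saline and 0.10 in OVA with mimic against OVA. The part of these cells and RNA classes in the globin values was not tested.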

How the data were processed

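Poly(A)-selected RNA from whole spleens was sequenced in 26 libraries. The deposited values are FPKM per gene and library, with replicates not pooled. The submitters' processing notes name, without a role, HISAT2 2.0.5 (an aligner), featureCounts 1.5.0-p3 (a read counter), StringTie 1.3.3b (a transcript assembler), CASAVA, and the count-based tests edgeR 3.24.3 and DESeq2 1.20.0. The genome build, and how reads on gene copies were counted, are not given there. Times gene length, the deposited FPKM were whole multiples of 1 step per library (tolerance 0.05 read) for 100% of values, which gave reads per library.

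Samples were grouped by the codes in the labels. Differences were fitted with limma 3.58.1 (R 4.3.3, trended variance) on log2(FPKM + 1), which understates changes of low genes, for 15672 of 56392 genes with at least 1 FPKM in at least 5 libraries. There was 1 mean per code and all 26 libraries shared the spread. The 5 comparisons were OVA (mean of OS and ON) against saline, OVA with mimic (mean of MM and MN) against OVA and against saline, OS against ON, and MM against MN. Benjamini-Hochberg adjustment ran over all genes within a comparison, at 0.05, two-sided. The code was tested on simulated data.

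Members and lists (21 lists, 169 of 170 symbols in the table) were chosen with earlier results of these data known. Values in each library (for the 6 of OS the lowest, median and highest) are printed for the 2 members of each role with the highest mean and for those with the largest and smallest differences in OVA against saline and OVA with mimic against OVA. A few genes that this rule names are not reported here. Epor, and the GC content of transcripts (GENCODE M21), were looked at after their values were seen. Promoters were searched over 250 bases with Python 3.11.15 and pandas 2.3.3, and figures drawn with matplotlib 3.10.9. Alternatives covered the pseudocount, filters, scaling, limma voom on recovered reads, the libraries and design of the fit, library weights, and each library left out in turn.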

Additional observations from a re-analysis of the deposited data

Results flagged for a closer look

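Within each code, the highest and lowest library was compared with the rest by its gap to the nearest other library, divided by the range of the code. Chance passes about 1 in 20 groups by this measure. Among 170 groups (34 genes by 5 codes) 15 passed, and 19 of 215 with the role means and globin balances included. The limits were Dixon's critical values for the size of the code.

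CT 4 stood above the other saline libraries in 13 of these. The gap over range was 0.808 for Urod, 0.770 for Fech, 0.743 for Sptb, 0.721 for Ank1, 0.823 for Epb41, 0.756 for Add2 and 0.811 for Rhag. It was 0.772 for Car1, 0.751 for Car2, 0.762 for Bpgm, 0.801 for Hemgn, 0.764 for Mkrn1 and 0.727 for Xpo7. CT 4 also stood apart in the mean of the heme enzymes (0.772), of the membrane and skeleton genes (0.733) and of the other erythroid genes (0.776), but neither in the globin mean nor in any single globin gene. These genes belong to 1 library, so the values are not independent of each other.

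ON 1 stood below the other ON libraries in Rhag, with a gap over range of 0.907, and in Car2, with 0.761. CT 1 stood above the other saline libraries in the share of Hba-a2 in alpha-globin FPKM, 15.2% against 4.47% to 6.04%, with a gap over range of 0.854.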

How the results depend on the processing

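In each of the 5 comparisons, 0 of the 34 genes passed under every alternative that was run. Fits with edgeR and DESeq2 on recovered reads were planned and not run, since the deposited values are FPKM. The median difference of the 34 genes moved by less than the spread between libraries in all 188 recomputed values, as did 36 globin shares and 294 role means. That limit was too wide to test how steady these values are. Leaving out a library cannot move the mean of its code by the full spread of that code. The limit also passed the change of the OVA-against-saline median without CT 4, so no conclusion is drawn from these counts. The OVA-against-saline median was -0.25 and -0.00 without CT 4, and the OS-against-ON median of -0.03 turned to 0.03 with plain FPKM on all reads, where the median of all genes shifted to 0.06.

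Counts over all genes, which set the background, moved more. For OVA against saline 340 were called, and 150 with no filter on low values, 117 with only the libraries compared, 87 with 1 mean per treatment, 1435 with library weights, 108 without the 3 pancreas-read libraries, 128 without these and CT 4, and 152 (without CT 1) to 486 (without OS 3) with 1 library left out. OVA with mimic against OVA had 0 called, 36 with weights, 22 without CT 4 and 2 without OS 5. OVA with mimic against saline had 0, 36 with weights and 1 without MN 2. OS against ON had 29, and 17 with the pseudocount of 0.1, 6 with no filter, 68 with plain FPKM, 0 with only the libraries compared, 564 with weights, 122 and 213 without the pancreas-read libraries (alone, and with CT 4), and 3 to 260 with 1 left out. MM against MN had 27, 7 with no filter, 123 with only the libraries compared, 474 with weights, 82 without CT 4 and the pancreas-read libraries, and 1 to 53 with 1 left out. Its calls split into 9 higher and 18 lower, and 5 and 18 with plain FPKM. The alternative without CT 4 and the pancreas-read libraries was chosen after seeing the data.

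With a replicate block 0 of the 34 genes were called in each comparison, and 184, 0, 0, 3 and 21 of all genes. The numbers did not pair the libraries: over 50 same-numbered pairs the correlation of deviations from the code means ran from -0.394 to 0.356 (median -0.0437, 9 over 0.1), and 3 of 25 libraries were closest to their own number. The lowest read count of any of the 34 genes in a library was 698.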

Other observations

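In OVA with mimic against OVA, differences below 0 were also counted on the other erythroid lists, beside 49.3% of all genes. They were below 0 in 4 of 4 remaining heme enzymes, 11 of 12 other membrane genes (median -0.32), 11 of 11 genes of iron and heme traffic and antioxidant defence (median -0.11) and 7 of 9 other erythroid transcription factors (median -0.12). With plain FPKM on all reads the last 2 counts were 9 of 11 and 5 of 9, beside 37.5% of all genes. They were below 0 also in 6 of 8 genes of erythropoietin signalling (median -0.03) and in the 2 tested embryonic and theta globins (median -0.19). In these 6 lists 0 genes were called (limma), and 0, 2, 0, 2, 0 and 0 had an unadjusted p under 0.05, against 10.1% of all genes. The adult globins were above 0 there, 4 of 4, with a median of 0.14. Of the mimic codes only MN had a mean globin level above both OVA codes. Relative to saline it was -0.07 in MN and -0.83 in MM, against -0.51 in OS and -0.85 in ON. The ratio of Slc4a1, a late gene, to Klf1, an earlier one, ran from 2.87 in MM 3 to 6.16 in MM 4, so 2 libraries of 1 code held both extremes of the 26.

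Alas1 was lowest in CT 4, at 3.81 FPKM, the library with the highest Alas2, at 1730.0 FPKM. Jak2 passed in OVA against saline under 1 of 38 alternatives, library weights (limma adjusted p of 0.0411), and under none of the others.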
